A study of Mus musculus with 13 samples.

Results

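The weaker Olig2-only peaks are the binding regions of Olig2 that shared no base with a peak of Nkx2.2 or Nkx6.1 and that had low Olig2 coverage. The members were chosen by the overlap of peaks and by a mean coverage below 20 units in the first block of the deposited Olig2 coverage table, or below 10 units in its second block, within 250 bp of the peak centre; these values are described here and not tested. There were 7873 such regions. They made up 67.0% of the 11747 Olig2 peaks and 83.8% of the 9390 Olig2-only peaks. Of the members, 5877 (74.6%) were below both thresholds, 22.2% were below the block 1 threshold only and 246 (3.12%) were below the block 2 threshold only. They are set against the 1517 strong Olig2-only peaks, which passed both thresholds. They are also set against 1429 co-bound peaks, which missed at least 1 threshold but shared a base with an Nkx2.2 or Nkx6.1 peak. Of these, 737 were below the block 1 threshold only, 667 below both and 25 below the block 2 threshold only, a different mix from that of the members. Another 928 co-bound peaks passed both thresholds.

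Chromatin immunoprecipitation with sequencing (ChIP-seq) was done in mouse neural progenitors grown from embryonic stem cells, with 13 libraries in all (7 ChIP and 6 input). Olig2, Nkx2.2 and Nkx6.1 were profiled in ventral progenitors, which had 2 days of suspension culture and then 3 days with 500 nM all-trans retinoic acid and 160 to 800 nM Smoothened agonist, a compound that switches on Hedgehog signalling. The first Olig2 ChIP library was from the YFP3.1 line and the second from Rosa26-Gli1FLAG, a derivative of YFP3.1, both on a background mixed from C57BL6/J, Swiss Webster and 129 Sv. Nkx2.2 was precipitated from Rosa26-Gli1FLAG cells in both of its libraries, and Nkx6.1 from YFP3.1 cells in the first and Rosa26-Gli1FLAG cells in the second. Gli3 was precipitated through a 3xFLAG-Avi tag at its initiation codon in V6.5 cells (C57BL/6 X 129/sv), in the single Gli3 library, after the same retinoic acid without the agonist. Every culture therefore had retinoic acid, and the Gli3 culture differed from the Olig2 cultures in line, agonist, antibody and tag together. Wherever Gli3 is set beside Olig2, these differences cannot be told apart.

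Olig2 is a basic helix-loop-helix factor that binds E-box sequences. In the ventral spinal cord it marks the progenitors of motor neurons and later of oligodendrocytes, and it acts largely as a repressor there. Nkx2.2 and Nkx6.1 are homeodomain proteins of neighbouring and overlapping ventral progenitor domains, and they hold down the programmes of other domains. Gli3 is a zinc-finger effector of Hedgehog signalling that serves mainly as a repressor when the signal is low. ChIP-seq peaks of a factor usually span a wide range of heights, and weak ones are the most numerous.

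The deposited peaks were each 300 bp wide and carried no score. Coverage at each Olig2 peak was listed in 3 blocks that name no library, from 2000 bp before the centre to 2000 bp after it in steps of 25 bp. The blocks cannot be used as replicates, so values carry their spread over peaks, and shares carry 95% Wilson intervals. Differences of shares carry 95% Newcombe intervals. All these intervals cover counting error only and treat peaks as independent, although neighbouring peaks share chromatin. Depth is unknown, and the coverage is given in the units of the authors' table. In bulk chromatin, a site occupied in fewer cells and a site occupied less in each cell cannot be told apart.

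Coverage at the members was low because it chose them, and it is given here as a description. Block 1 coverage of the members ran from 3.46 to 63.1 units with a median of 9.49, against a median of 32.4 in the strong Olig2-only peaks and 11.2 in the co-bound peaks below the thresholds. Block 2 coverage of the members ran from 0.178 to 53.2 units with a median of 6.26, against medians of 22.1 in strong and 10.2 in co-bound peaks. The means of the members were 10.7 ± 4.80 units in block 1 and 7.34 ± 4.95 units in block 2 (SD over 7873 peaks). The co-bound peaks below the thresholds thus lay near the members in block 1 and above them in block 2.

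Their mean block 1 coverage was 13.9 times that of the outermost 250 bp on each side of the profile (the flank), and their block 2 coverage was 11.2 times it. The strong Olig2-only peaks reached 48.4 times in block 1 and 36.3 times in block 2. A centre more than 2 times its own flank in block 1 was found at 7761 members (98.6%), where all Olig2 peaks gave 98.8%. In block 2 it was found at 7596 members (96.5%), where all Olig2 peaks gave 97.4%. Peak calling and the rule both rest on such coverage, so these shares describe the list and are read no further.

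**Figure D1:**
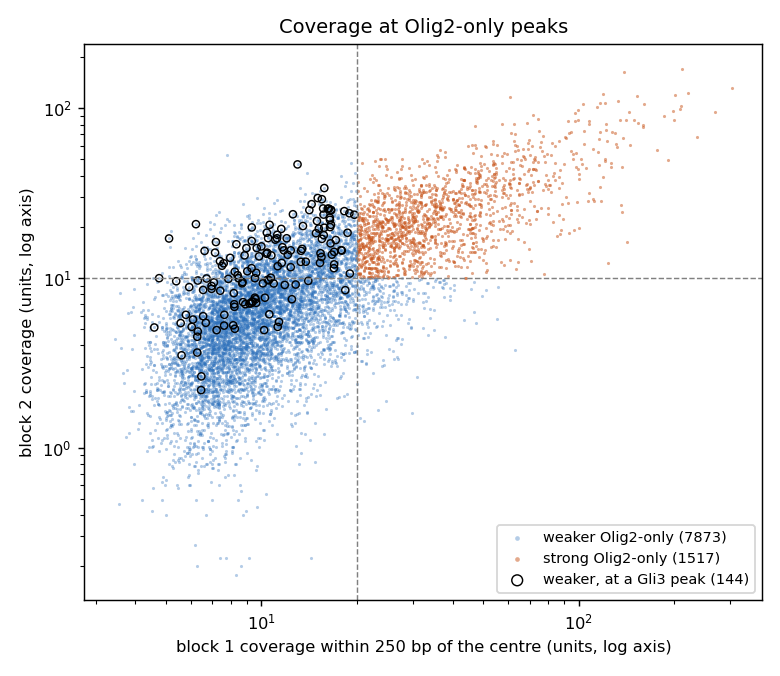
Mean coverage within 250 bp of the centre in block 1 (x, log axis) and block 2 (y, log axis) at the 7873 weaker (blue) and 1517 strong (orange) Olig2-only peaks, with dashed lines at the thresholds of 20 and 10 units. Open circles are the 144 weaker peaks that share a base with a Gli3 peak, and these circles lie mostly in the upper part of the blue cloud, at a median of 12.2 units in block 2.

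The members nearest the thresholds show how fine the division is. The region at chromosome 5, 34982086 to 34982385 (mm9 throughout), had 19.996 units in block 1, and chromosome 8, 50365235 to 50365534, had the same value. The nearest peaks left out were chromosome 11, 108664547 to 108664846, with 20.02 units and chromosome 2, 153252771 to 153253070, with 20.03 units. In block 2, the members at chromosome 3, 95566851 to 95567150, and chromosome 4, 94804380 to 94804679, had 9.999 units, against 10.02 units at chromosome 16, 50884630 to 50884929, and 10.04 units at chromosome 3, 65278594 to 65278893, both left out. The values on either side of each limit differ by less than 0.1 units.

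The mean profile of the members was lower than that of the strong peaks and as wide at 50% of its height. Away from the centre the profiles were closer, with 1.76 units in members and 2.32 units in strong peaks at -500 bp in block 1. The mean profile of the members peaked at the centre with 21.4 units in block 1 and 13.1 units in block 2, against 88.4 and 51.3 units in the strong Olig2-only peaks. The full width at 50% of the height above the flank was 200 bp in block 1 and 250 bp in block 2, in members and strong peaks alike. The highest point of the profile lay within 100 bp of the centre in both blocks at 83.4% of members, against 94.3% of strong peaks and 80.9% of co-bound peaks below the thresholds. It lay more than 500 bp away in both blocks at 4.64% of members, against 1.19% of strong peaks and 4.83% of co-bound peaks below the thresholds. The members were thus near the co-bound peaks below the thresholds in this.

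**Figure D2:**
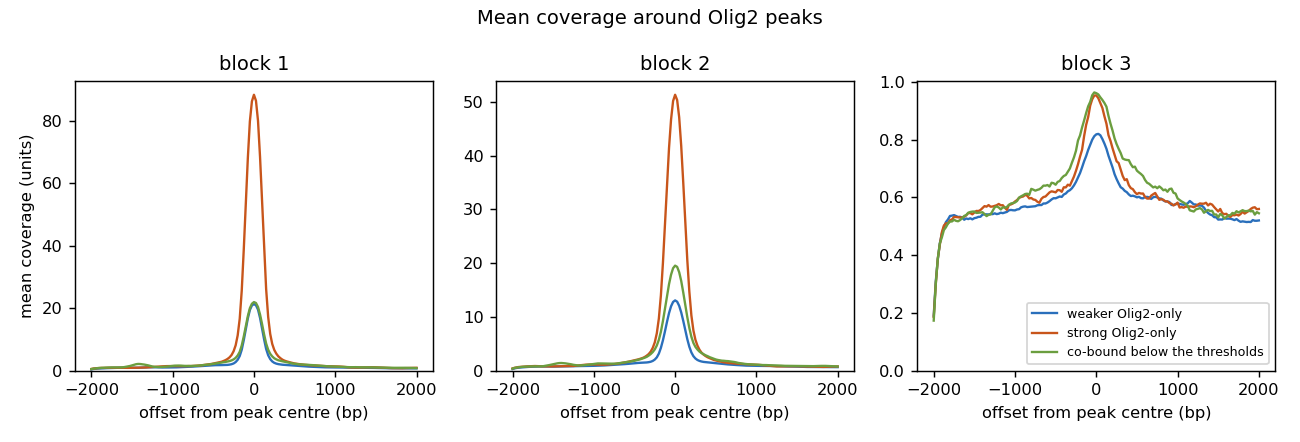
Mean coverage (y, units of the authors' table, a separate scale for each block) by offset from the Olig2 peak centre (x, bp) for weaker Olig2-only peaks (blue, 7873), strong Olig2-only peaks (orange, 1517) and co-bound peaks below the thresholds (green, 1429). The weaker peaks reach 21.4, 13.1 and 0.820 units in blocks 1, 2 and 3, and all curves dip at the left edge of the window in block 3.

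The order of the deposited Olig2 list followed block 1 closely, although the list prints no score. Over all 11747 Olig2 peaks, the rank correlation of list position with coverage was -0.928 in block 1, -0.634 in block 2 and -0.0508 in block 3 (Spearman, a description over peaks of the same libraries). Members made up 29.0% of the Olig2-only peaks in the first quartile of the whole list, 96.3% in the second, 99.9% in the third and 99.8% in the last. The lower 3 quartiles held hardly any Olig2-only peak that was not a member, and the first quartile held 583 members. The rule reads block 1, which the list order follows, so this division is largely set by the rule. Within the members, block 1 and block 2 ranked the regions alike only in part, with a rank correlation of 0.508 over 7873 regions. It was 0.549 in the strong Olig2-only peaks.

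Block 3 was not read by the rule. Its centre was low at the members, with a median of 0.654 units and a mean 1.54 times the flank, against 0.766 units and 1.68 times in the strong Olig2-only peaks. A centre above 2 times the flank was found at 3050 members (38.7%, interval 37.7 to 39.8), where all Olig2 peaks gave 40.4% and all Olig2-only peaks 39.2%. In strong Olig2-only peaks it was 41.7% (39.3 to 44.2), so the members were lower by 2.99 points (difference -2.99, interval -5.71 to -0.302). Counted as a centre above 4 times the flank, the difference was -0.801 points (-2.90 to 1.15), which includes 0. The members and the strong peaks were thus close in block 3, while the rule itself set their block 1 medians far apart. Within the members block 3 hardly followed block 1 (rank correlation 0.0473) or block 2 (0.169). The strong Olig2-only peaks gave similar values (0.0719 and 0.201).

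A few members went against this. The region at chromosome 15, 74915895 to 74916194, had 53.0 units in block 3, beside 15.2 units in block 1 and 27.2 units in block 2, and its flank had 0.250 units in block 3. The region at chromosome 8, 15519784 to 15520083, had 8.33 units in block 3, 7.78 units in block 1 and 53.2 units in block 2, the highest block 2 value of any member. The third by block 3 over flank, chromosome 15, 102180919 to 102181218, had 2.93 units. The excess of block 3 over its flank at the first of these regions was the largest of any member, where 95% of members had at most 1.57 units at the centre. Another 3 members within chromosome 11, 3069369 to 3086821, had block 3 flanks of 12.0 to 17.4 units, each above its own centre (9.60 to 11.3 units). A block 3 flank above 5 units was found at 3 of 7873 members and 0 of 1517 strong Olig2-only peaks. Counts this low do not set the classes apart.

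The overlap with Gli3 asks how often the weaker Olig2 sites were also listed for a Hedgehog effector, in cells grown without the agonist. Sharing at least 1 bp with a Gli3 peak was found at 144 of 7873 members, a share of 1.83% (1.56 to 2.15), where all Olig2 peaks gave 3.26% and all Olig2-only peaks 2.1%. It was found at 53 of 1517 strong Olig2-only peaks, 3.49% (2.68 to 4.54). The members were lower by 1.66 points (difference -1.66, interval -2.75 to -0.791). Against the co-bound peaks below the thresholds, at 94 of 1429 or 6.58% (5.41 to 7.98), the difference was -4.75 points (-6.18 to -3.53). Those peaks had more block 2 coverage than the members, so this comparison is not matched for coverage. From the side of Gli3, 142 of its 1888 peaks, or 7.52%, lay at a member, 53 (2.81%) at a strong Olig2-only peak and 89 (4.71%) at a co-bound peak below the thresholds. More Gli3 peaks were thus found at members than at strong Olig2-only peaks in number, and fewer per region.

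The members were not uniform in this. Those below the block 1 threshold only met Gli3 at 85 regions, 4.86% (3.95 to 5.97), which was 1.36 points above the strong Olig2-only peaks with an interval that includes 0 (-0.0257 to 2.74). Those below both thresholds met it at 59 of 5877 regions, 1.00% (0.779 to 1.29), a difference from the strong peaks of -2.49 points (-3.56 to -1.63). Those below the block 2 threshold only met it at 0 of 246 regions, which allows a share of up to 1.22% (3 counts of the total; the Wilson interval ends at 1.54%). These subsets are set by the rule's own thresholds, and the Gli3 list was not used by it.

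**Figure D3:**
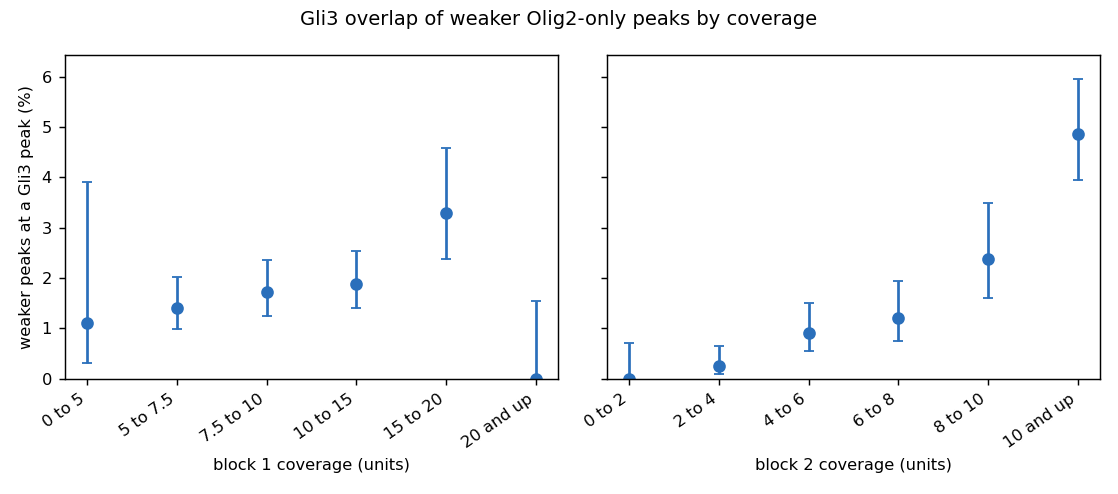
Share of weaker Olig2-only peaks that share a base with a Gli3 peak (y, percent, bars are 95% Wilson intervals) by bin of mean Olig2 coverage (x, units) in block 1 (left) and block 2 (right). The share goes up through every bin of block 2, to 4.86% at 10 units and up. In block 1 it stays between 1.10% and 3.30% below 20 units and is 0 of 246 regions above. By the rule, members at 20 units or more in block 1 are all below 10 units in block 2.

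Binned by block 2, the share at Gli3 was 0 of 545 members below 2 units (which allows up to 0.550%, with a Wilson interval that ends at 0.700%), 0.252% of 1589 from 2 to 4 units, 0.911% of 1647 from 4 to 6 units, 1.20% of 1329 from 6 to 8 units, 2.37% of 1013 from 8 to 10 units and 4.86% of the rest. Binned by block 1, it was 1.10% of 182 members below 5 units, 1.41% of 1987 from 5 to 7.5 units, 1.72% of 2149 from 7.5 to 10 units, 1.89% of 2279 from 10 to 15 units and 3.30% of 1030 from 15 to 20 units. The bins of the blocks differ in width and span, so their climbs cannot be compared directly. Members at 20 units or more in block 1 enter only with block 2 below 10 units.

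Splitting the members by the median of block 2 inside narrow bins of block 1 kept the block 1 medians of both parts close. From 5 to 7.5 units of block 1, the share at Gli3 was 2.41% in the upper part by block 2 and 0.403% in the lower part, a difference of 2.01 points (1.00 to 3.19). From 7.5 to 10 units it was 3.16% in the upper and 0.279% in the lower part, a difference of 2.88 points (1.84 to 4.12). From 10 to 15 units it was 3.25% in the upper and 0.527% in the lower part, a difference of 2.72 points (1.64 to 3.95). From 15 to 20 units it was 6.21% in the upper part and 0.388% in the lower, a difference of 5.83 points (3.78 to 8.27). In each of these 4 bins the share at Gli3 was higher in the upper part by block 2.

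The balance of the blocks, log2 of (block 2 + 1) over (block 1 + 1), orders all members at once; this comparison was chosen after seeing the data. The blocks name no library, and the Olig2 libraries came from different cell lines, so a difference between libraries and a difference between lines cannot be told apart in the balance. In the quartile with the highest balance, 97 of 1969 members (4.93%, 4.06 to 5.97) lay at a Gli3 peak, and in the quartile with the lowest balance 1 of 1968 (0.0508%, 0.00897 to 0.287) did, a difference of 4.88 points (3.97 to 5.92). The quartiles between them had 36 (1.83%) and 10 (0.508%). Block 1 coverage was nearly level over the 4 quartiles, with medians of 9.23, 9.52, 9.31 and 10.0 units from the highest to the lowest, while block 2 medians were 11.6, 7.23, 4.83 and 2.88 units. Of the 144 members at Gli3, 97 were thus in the quartile with the highest balance.

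The other classes showed the same order within their own quartiles. In strong Olig2-only peaks the share at Gli3 was 6.84% in the quartile with the highest balance and 1.06% in the lowest. In co-bound peaks below the thresholds it was 12.8% in the highest and 1.12% in the lowest, and in co-bound peaks above them 17.7% and 4.74%. The pattern was thus present in every class of Olig2 peak examined, and nothing here marks it as particular to the weaker ones.

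**Figure D4:**
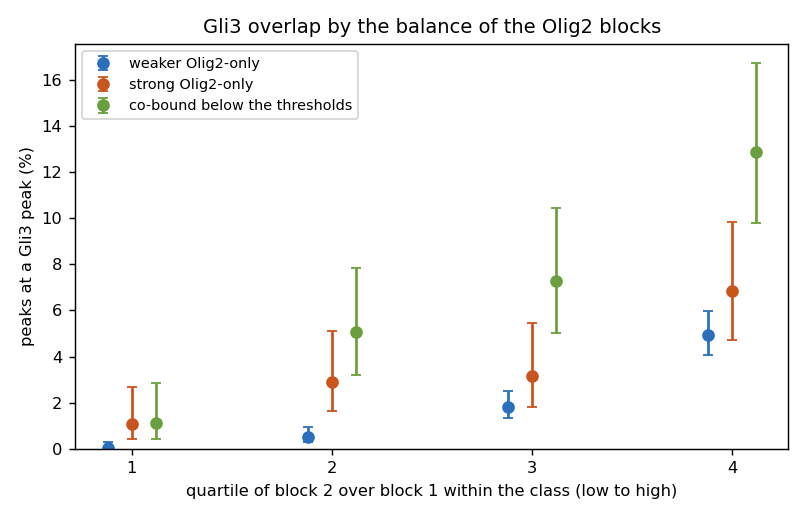
Share of peaks at a Gli3 peak (y, percent, bars are 95% Wilson intervals) by quartile of the balance of block 2 over block 1 within each class (x, low to high), for weaker Olig2-only (blue), strong Olig2-only (orange) and co-bound peaks below the thresholds (green). Weaker peaks reach 4.93% in the highest quartile, against 0.0508% in the lowest, and the other classes go up in the same direction.

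Other measures moved with the balance in the members too, and their part in the Gli3 result was not tested. Another Olig2 peak within 10 kb was present at 28.6% of the highest and 17.6% of the lowest quartile, a difference of 11.0 points (8.39 to 13.6). An Nkx2.2 or Nkx6.1 peak within 10 kb was present at 18.8% of the highest and 11.0% of the lowest, a difference of 7.82 points (5.60 to 10.0). A block 3 centre above 2 times the flank was present at 40.8% of the highest and 37.1% of the lowest, a difference of 3.64 points (0.591 to 6.67). In the highest and lowest quartiles of strong Olig2-only peaks, another Olig2 peak was present at 39.2% and 21.6%. There an Nkx2.2 or Nkx6.1 peak was present at 19.7% and 14.2%, and a raised block 3 centre at 45.5% and 44.1%. Among members with no Nkx2.2 or Nkx6.1 centre within 10 kb, the difference in Gli3 share between the end quartiles was 4.30 points (3.37 to 5.39).

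Where a member met Gli3, the median distance between centres was 64 bp over the 144 members, and 63 of them (43.8%) were within 50 bp. It was 58 bp with 47.2% within 50 bp in strong Olig2-only peaks, and 88.5 bp with 34.0% in co-bound peaks below the thresholds. Sharing a base of peaks 300 bp wide bounds these distances. The closest were chromosome 5, 133076210 to 133076509, at 0 bp, with 8.18 units in block 1 and 8.13 units in block 2, and chromosome 3, 133906841 to 133907140, at 1 bp, with 11.5 and 19.4 units. Chromosome 5, 131414361 to 131414660, also lay at 1 bp, with 9.58 and 7.48 units. At 2 bp were chromosome 2, 93017065 to 93017364, with 10.4 and 14.1 units, and chromosome 5, 112582669 to 112582968, with 6.96 and 8.95 units. All 5 lay well inside the range of the members in block 1, and 4 of them stood in the last quartile of the Olig2 list.

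The members at Gli3 differed from the other members mainly in block 2. Their median coverage was 10.4 units in block 1, against 9.48 units in members at no Gli3 peak. In block 2 it was 12.2 units, against 6.19 units, and in block 3 it was 1.06 units, against 0.654 units. Their median balance was 0.17, against -0.60. Block 3 was above 2 times the flank in 47.2% of members at Gli3, against 38.6% of members at no Gli3 peak, so block 3 also moved with the overlap, and its part was not tested.

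The co-bound share of all Olig2 peaks also went by block 2, here as a description since membership rests on it. Among all Olig2 peaks below the block 1 threshold only, 29.6% shared a base with Nkx2.2 or Nkx6.1, against 10.2% of those below both thresholds, 9.23% of those below the block 2 threshold only and 38.0% of those below neither. The members are what remains after those peaks are set aside.

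The spacing of the members was looser than that of the strong peaks. Another Olig2 peak lay within 10 kb of 1922 members, 24.4% (23.5 to 25.4), where all Olig2 peaks gave 27.1% and all Olig2-only peaks 25.3%. In strong Olig2-only peaks the share was 30.2% (27.9 to 32.5), so the members were lower by 5.78 points (difference -5.78, interval -8.32 to -3.32). The median distance to the nearest other Olig2 peak was 41.6 kb for members and 34.6 kb for strong peaks. The members below the block 1 threshold only stood apart from the rest here as well, with 31.7% (29.5 to 33.9), against 22.5% (21.5 to 23.6) of those below both thresholds and 17.5% (13.2 to 22.7) of those below the block 2 threshold only.

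The nearest Olig2 peak was most often another member, as in the list at large. Of the 1922 members with an Olig2 neighbour within 10 kb, the nearest was another member for 62.2% (60.0 to 64.4), a strong Olig2-only peak for 15.7% (14.1 to 17.4), a co-bound peak below the thresholds for 12.6% and a co-bound peak above them for 9.47% (8.24 to 10.9). The whole Olig2 list held 67.0%, 12.9%, 12.2% and 7.90% of these classes. The share of members lay below the list's, and the shares of strong peaks and of co-bound peaks above the thresholds lay above it, each with an interval that leaves out the list's share. Neighbours that are both members count for each of them, so these intervals are too narrow. Sharing a base with another Olig2 peak was found at 75 of 7873 members and 14 of 1517 strong Olig2-only peaks, which are similar shares.

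Nkx2.2 peaks were somewhat less frequent near members as a whole than near strong Olig2-only peaks. For Nkx6.1 the interval of that difference includes 0, and the subsets of the members differed. An Nkx2.2 or Nkx6.1 peak lay within 10 kb of 1264 members, 16.1% (15.3 to 16.9), where all Olig2-only peaks gave 16.3%, and of 17.7% (15.8 to 19.7) of strong ones, a difference of -1.61 points (-3.76 to 0.403). Within 50 kb that difference was -3.42 points (-6.16 to -0.695). For Nkx2.2 alone it was 758 members (9.63%), where all Olig2-only peaks gave 9.94%, against 11.5% of strong ones, a difference of -1.91 points (-3.73 to -0.254). For Nkx6.1 alone it was 762 members (9.68%), where all Olig2-only peaks gave 9.6%, against 9.16% of strong ones, a difference of 0.516 points (-1.16 to 2.02). Members below the block 1 threshold only differed from strong peaks by 2.67 points for Nkx6.1 (0.552 to 4.76) and 0.350 points for Nkx2.2 (-1.88 to 2.55). Members below both thresholds differed by -0.111 points for Nkx6.1 (-1.82 to 1.44) and -2.50 points for Nkx2.2 (-4.35 to -0.809). A Gli3 peak that shared no base lay within 10 kb of 310 members (3.94%), where all Olig2-only peaks gave 4.03%, against 4.48% of strong ones (difference -0.545, interval -1.78 to 0.490). The difference in Gli3 between weaker and strong peaks was therefore seen in direct overlap, while that in the surrounding 10 kb had an interval that includes 0.

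Nkx coverage at the members could be measured where a member lay close to an Nkx peak. The Nkx2.2 and Nkx6.1 tables reach 2000 bp from each of their own peaks, so a member within 1.75 kb of an Nkx peak is covered by that peak's profile. The coverage within 100 bp of the member's centre was set against the same offset on the other side of the Nkx peak, in the same row of the table. Rows with a peak of any factor at the mirrored offset were left out, leaving 210 of 233 members for Nkx2.2 and 252 of 285 for Nkx6.1.

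In these members both factors had more coverage than on the mirrored side. The mirrored side was cleared of listed peaks while the member is itself a listed peak, which favours the member's side. How much of the excess this makes was not tested. Nkx2.2 block 1 had a median of 4.91 units at the member (quartiles 1.31 and 9.79) and 0.323 units at the mirrored offset (0 and 1.94). It was higher at 159 of 210 members, 75.7% (69.5 to 81.02), where all Olig2-only peaks used gave 77.8%. Nkx6.1 block 1 had a median of 2.99 units at the member (1.74 and 4.42) and 0.783 units at the mirrored offset (0.290 and 1.45). It was higher at 222 of 252 members, 88.1% (83.5 to 91.5), where all Olig2-only peaks used gave 89.2%. Members were 210 of the 261 Olig2-only peaks used for Nkx2.2 and 252 of 297 for Nkx6.1, so those shares lie near by construction. In strong Olig2-only peaks block 1 was higher at 44 of 51 (86.3%, 74.3 to 93.2) for Nkx2.2. For Nkx6.1 it was higher at 43 of 45 (95.6%, 85.2 to 98.8).

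The second blocks gave the same direction. Nkx2.2 block 2 had medians of 1.84 units at the member and 0.813 units at the mirrored offset and was higher at 162 members (77.1%), where all Olig2-only peaks used gave 78.2%. Nkx6.1 block 2 had medians of 2.197 units and 0.776 units and was higher at 207 members (82.1%), where all gave 83.5%. Block 3 of these tables was also higher at the member, in the Nkx2.2 table with 0.897 against 0.571 units at 146 members (69.5%, all 69.7%) and in the Nkx6.1 table with 0.741 against 0.523 units at 167 members (66.3%, all 69.4%). A part of the excess was thus seen in every block, and what block 3 contributes to it was not tested.

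**Figure D5:**
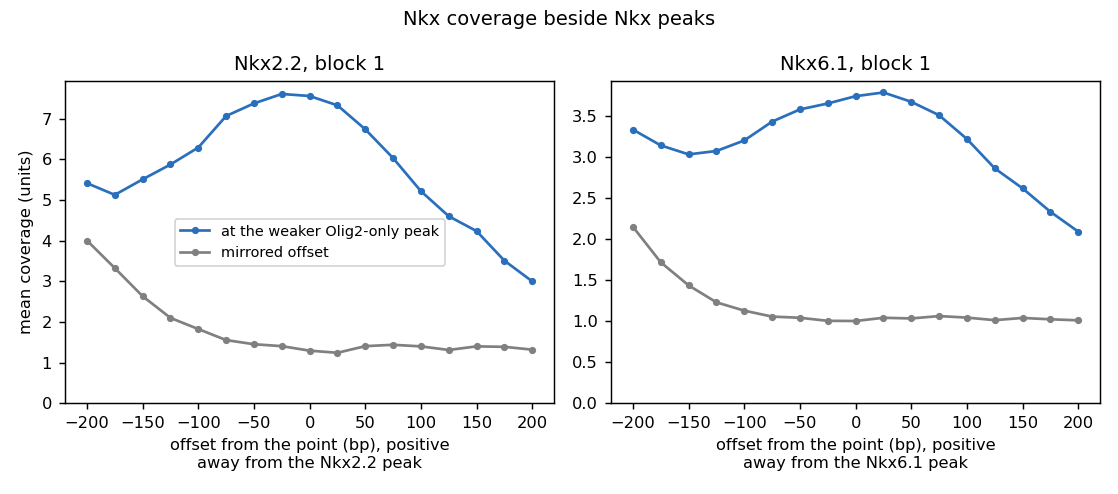
Mean block 1 coverage of Nkx2.2 (left) and Nkx6.1 (right) around weaker Olig2-only peaks within 1.75 kb of a peak of that factor (blue, 210 and 252 peaks) and around the mirrored point on the other side (grey), by offset from the point (x, bp, positive away from the Nkx peak). Coverage forms a local rise at the Olig2 centre and falls off on the grey side with distance from the Nkx peak.

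The excess was also seen at members farther from the Nkx centre, with the mirrored side cleared of listed peaks in the same way. At members at least 600 bp from the Nkx centre, the block 1 medians were 4.58 units at the member and 0.194 units at the mirrored offset for Nkx2.2 (157 members), and 2.81 and 0.754 units for Nkx6.1 (166 members). Block 3 was also higher at 108 of these 157 and 105 of these 166 members. What spread from the Nkx peak contributes was not tested. In block 1 the Nkx coverage at most members lay below that of listed Nkx peaks, and in block 2 less so. The rule left out Olig2 peaks that shared a base with a listed Nkx peak, which favours low values here. This comparison is therefore a description. The centres of the neighbouring Nkx peaks had block 1 medians of 31.7 units for Nkx2.2 and 18.3 units for Nkx6.1, and in block 1 the 5th percentile of all listed peaks (15.5 units for Nkx2.2 and 10.2 units for Nkx6.1) was reached by 25 of 210 and 7 of 252 members. In block 2 that percentile (1.63 units for Nkx2.2 and 1.95 units for Nkx6.1) was reached by 120 of 210 and 148 of 252 members. Strong Olig2-only peaks had more, with medians of 8.46 units at the peak and 0.775 units at the mirrored offset for Nkx2.2 (51 peaks), and 5.16 and 0.754 units for Nkx6.1 (45 peaks). These numbers cover members beside an Nkx peak, and the other members were not measured, since the Nkx tables do not reach them.

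The members with most Nkx coverage in block 1 ranged from below to above the listed peak beside them. For Nkx2.2, chromosome 15, 27867187 to 27867486, had 30.9 units in block 1 at 1376 bp from the Nkx2.2 centre and 0.645 units on the mirrored side, while that Nkx2.2 peak itself had 27.6 units. Chromosome 3, 107128607 to 107128906, had 28.7 units at 303 bp, beside a peak of 35.1 units, and chromosome 2, 14530284 to 14530583, had 27.9 units at 1364 bp, beside a peak of 65.4 units. For Nkx6.1, chromosome 8, 63994917 to 63995216, had 12.6 units at 876 bp and 0 on the mirrored side, beside an Nkx6.1 peak of 13.9 units, and its centre was 11 bp from that of a Gli3 peak. Chromosome 18, 54987788 to 54988087, had 12.0 units at 1099 bp, beside a peak of 13.2 units, and chromosome 13, 84203061 to 84203360, had 11.7 units at 1214 bp, beside a peak of 14.1 units. At the first of these 6 regions the member had more Nkx coverage than the listed peak beside it.

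The members were spread over the autosomes and chromosome X in nearly fixed proportion. Their share of the Olig2-only peaks ran from 80.8% on chromosome 18 to 87.3% on chromosome 12, and all intervals overlapped. The Gli3 share was less even. On chromosome 8, 17 of 434 members (3.92%) lay at a Gli3 peak, against 127 of 7439 (1.71%) on the other chromosomes, a difference of 2.21 points (0.718 to 4.49). Chromosome 8 also held 268 of the 1888 Gli3 peaks, more than any other, and its members had the highest median balance of the blocks, -0.46, where the other chromosomes had -0.65 to -0.51. Without chromosomes 8 and Y, the difference in Gli3 share between weaker and strong Olig2-only peaks was -1.51 points (-2.59 to -0.649).

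On chromosome X the flanks of the members were lower than on the autosomes in all 3 blocks, and the centres of blocks 1 and 2 were lower by less. The 145 members there had median flanks of 0.181, 0.213 and 0.178 units in blocks 1, 2 and 3, against 0.463, 0.425 and 0.428 units on the autosomes. Their median centres were 9.26 and 5.72 units in blocks 1 and 2, against 9.51 and 6.26 units on the autosomes. In block 3 the centre was 0.336 units, against 0.672 units.

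Dense runs of members were few. Cut into windows of 100 kb, 4448 windows held 1 member, 1114 held 2, 274 held 3 and 64 held 4. The fullest was chromosome 5, 99900001 to 100000000, with 8 members, no strong Olig2-only peak, 1 co-bound peak and no Gli3 peak. Its members had 8.63 to 18.9 units in block 1 and 2.05 to 19.0 units in block 2. Next were chromosome 9, 65000001 to 65100000, and chromosome 10, 83900001 to 84000000, with 7 members each. None of these 3 windows held a strong Olig2-only peak, and none of their members lay at a Gli3 peak. Strong Olig2-only peaks were 12.9% of all Olig2 peaks, and 1.83% of all members lay at a Gli3 peak. With so few regions these absences are read no further.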

How the data were processed

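The members and the comparisons were chosen with earlier results of these data known. Per the submitters' processing notes, Bowtie2 2.2.4, HOMER and the build mm9 were used; neither their settings nor any pooling of replicates is stated. The authors deposited 1 peak list per factor (chromosome, start, end; under replicate 1 for Olig2) and coverage tables with 3 blocks per table, in units with no stated scaling, so depth is unknown. Columns of other samples numbered 0. Low values of the Olig2 blocks start at steps of 0.249, 0.468 and 0.392 units.

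Table rows were matched to the peaks on the same line of the list. Over 930 Olig2 peaks within 1000 bp of another, shifted profiles had a median correlation of 0.997, and 0.573 with the next row. Each peak's coverage is its mean up to 250 bp from the centre, and the flank was the outermost 250 bp on each side, whose left side dips at the edge of the window. Peaks overlapped when they shared 1 bp. The balance of the blocks used a pseudocount of 1. Shares have 95% Wilson and differences 95% Newcombe intervals (Python 3.11.15, numpy 2.4.6, pandas 2.3.3, scipy 1.17.1), tested on simulated data. No p-value was computed, since neither the lists nor the blocks give replicates. Named regions were, by a fixed rule, those nearest the thresholds, the 5 with the closest Gli3 centres, the 3 fullest windows of 100 kb, the 3 with most block 3 over flank, and the 3 with most Nkx coverage per factor; the chromosome 11, chromosome 8 and chromosome X values were chosen after they were seen. Coordinates are 1-based. Genes and sequences of mm9 were not used here. Alternatives covered the blocks, thresholds, windows, overlap distances, flanks and pseudocount.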

Additional observations from a re-analysis of the deposited data

How the results depend on the processing

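Of 48 alternatives, none reversed a direction, 6 moved a value by more than the margin used here (the interval of the first value for shares, the spread over peaks for coverage, 1.5 times for counts), and 42 did not, though some of these changed by more than 1.5 times. The difference in Gli3 share between weaker and strong Olig2-only peaks (-1.66 points) was -3.26 points with the rule on block 2 alone. Members below both thresholds, set against all other Olig2-only peaks (other members included), differed by -2.92 points. Against the strong peaks alone they differed by -2.49 points. The difference in Gli3 share between the end quartiles of the balance (4.88 points) was 2.65 points among members below both thresholds and 6.196 points with Gli3 centres within 1000 bp. With a pseudocount of 0.1 in place of 1, the median log2 ratio of Nkx coverage at the member over the mirrored offset was 2.22 for Nkx2.2, against 1.19, and 1.68 for Nkx6.1, against 0.95. The alternatives for the balance were chosen after seeing the data. The difference in block 3 was the least firm of these results. Its interval included 0 with the rule on block 1 alone (-2.06 points, -4.62 to 0.464) and with thresholds of 15 and 7.5 (-0.982, -3.25 to 1.27). It also included 0 above 4 times the flank (-0.801, -2.90 to 1.15). With members below both thresholds set against all other Olig2-only peaks, it included 0 too (-1.87, -3.92 to 0.170). Against the strong peaks alone, those members differed by -3.20 points (-5.99 to -0.446), which leaves out 0. The difference in Nkx2.2 or Nkx6.1 peaks nearby (-1.61 points) was -3.42 points within 50 kb. The number of members ran from 5877 below both thresholds to 8334 with the higher thresholds tried. The planned motif, gene and start site steps were not run. No paired analysis was possible because each factor has 1 peak list and the coverage blocks name no library, so no replicate could be left out either.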
